A study of Homo sapiens with 6 samples.

Results

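The anaphase promoting complex (APC/C) and its partners in mitotic exit were followed through 8 genes, chosen by symbol from the 58735 rows of a deposited expression table. They are the coactivators CDC20 and FZR1, the ubiquitin-conjugating enzymes UBE2C and UBE2S, the inhibitor FBXO5, securin (PTTG1), separase (ESPL1) and the scaffold subunit CDC27. The table holds 6 sequenced RNA libraries made from MDA-MB-231, an established basal-like breast cancer line of mesenchymal character. The labels give the genotype as WT for every library and name the samples SCR, which was taken here to mean the study's non-targeting shRNA control line, although the study's text does not describe the irradiated cells. Cells received 0 Gy or 10 Gy from a caesium irradiator and RNA was collected 24 h later, with 3 libraries at each dose. As a model this is 1 irradiated line at 1 dose and 1 time, and the labels do not say whether the numbered samples came from separate cultures, so p-values measure the spread between these samples, which may be technical.

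The APC/C is a ubiquitin ligase that ends mitosis by marking proteins for destruction. Bound to CDC20 it marks securin and cyclin B once chromosomes are attached to the spindle, which frees separase to cleave the cohesin that holds sister chromatids together. Bound to FZR1 (also called CDH1) it acts from late mitosis through G1 and has a described role in the G2 checkpoint after DNA damage, whereas FBXO5 (EMI1) blocks the complex from S phase until mitotic entry. Much of this control acts on proteins, through phosphorylation, binding and degradation, and was not measured here.

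After 10 Gy, 4 of the 8 genes were called higher (PTTG1, CDC20, UBE2C and CDC27), 2 were called lower (FBXO5 and ESPL1), and 2 did not pass the test (UBE2S and FZR1). PTTG1 RNA rose 1.39-fold and FBXO5 RNA fell to 0.661 of its unirradiated level. These were the only members past a 1.3-fold change, a cut that the study states for MAFF knockdown against control rather than for irradiation. The other 4 calls were smaller. Without any irradiated library in turn, 2 members (PTTG1 and CDC20) were called higher, and only FBXO5 was called lower without any library other than 0 Gy replicate 1. Among all 12128 genes tested, 11.9% were called higher and 23.7% lower, so calls were common in both directions. All 8 genes had a mean of at least 1 FPKM (fragments scaled to gene length and library depth) and entered the test, and the median of their log2 changes was 0.14 against -0.039 for all genes tested. A gene was called at an adjusted p under 0.05 from a limma fit of log2(FPKM + 1) over all tested genes. In bulk RNA, a change in the share of cells in mitosis and a change in RNA per cell cannot be told apart.

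Reads assigned to genes, recovered from the FPKM values, ranged from 15643641 to 28861781 per library, and the 8 genes rested on between 814 and 18791 reads in a library. Pearson's r across genes lay between 0.992 and 0.994 for libraries of the same dose and between 0.984 and 0.989 for libraries of different dose. The line's markers VIM, CD44, EGFR, CAV1 and AXL were between 26.4 and 312 FPKM, with a summed level of 779 to 789 FPKM at 0 Gy and 622 to 641 FPKM at 10 Gy. The luminal markers ESR1, PGR, GATA3 and FOXA1 summed to 2.76 to 3.28 FPKM over all libraries, with PGR at 0. The immune and endothelial markers PTPRC, CD3E, CD68, PECAM1 and CDH5 summed to 1.35 to 1.47 FPKM at 0 Gy and 2.01 to 2.08 FPKM at 10 Gy, with CD3E at 0 and PECAM1 reaching 1.97 FPKM at most. The part of these shifts in the results was not tested.

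Promoter sequence is shown for the genes with a window that holds both kinds of element looked for. Of these, CDC20 and PTTG1 were called higher and FBXO5 and ESPL1 lower. Many genes transcribed late in the cell cycle carry CCAAT boxes, bound by NF-Y, upstream of a CHR element, written TTTGAA or TTTAAA. RefSeq promoter windows on GRCh38.p14 matched 7 of the 8 genes, and UBE2C had no entry. The 250 bases upstream of each annotated start were searched on both strands for these letters. In the stretches below, written 5′ to 3′ on the gene's strand and limited to bases outside annotated exons, capitals mark the matches. A match on the opposite strand reads ATTGG or TTCAAA.
CDC20 (chr1:43358835-43358954, plus strand): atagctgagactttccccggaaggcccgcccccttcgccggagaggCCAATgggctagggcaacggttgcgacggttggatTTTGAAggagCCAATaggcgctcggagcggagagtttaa
PTTG1 (chr5:160421702-160421821, plus strand): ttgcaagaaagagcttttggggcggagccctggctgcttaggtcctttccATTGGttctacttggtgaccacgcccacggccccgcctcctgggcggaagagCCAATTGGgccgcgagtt
FBXO5 (chr6:152983042-152983161, minus strand): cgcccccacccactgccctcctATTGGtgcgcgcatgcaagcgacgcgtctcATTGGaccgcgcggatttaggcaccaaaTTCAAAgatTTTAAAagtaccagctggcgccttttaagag
ESPL1 (chr12:53268179-53268298, plus strand): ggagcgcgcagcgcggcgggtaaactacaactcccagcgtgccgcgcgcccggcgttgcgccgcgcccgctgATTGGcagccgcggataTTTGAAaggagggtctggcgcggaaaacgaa

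In CDC20, CCAAT began at -100 and -55 from the annotated transcript start at position 43358981, and TTTGAA at -65. A further TTTGAA of CDC20, on the opposite strand, began at -178, upstream of the stretch printed. PTTG1 held CCAAT on both strands in an overlapping run beginning at -51 and -48 from its start at position 160421855, and a further copy at -103. Its TTTAAA began at -29, in a stretch that other transcripts use as exon, and is therefore not printed. The FBXO5 sequence lies before its second annotated start, at position 152983041 inside the gene, with TTTGAA on the opposite strand and TTTAAA beginning at -40 and -31. In the same window CCAAT began at -141, and on the opposite strand at -138, -98 and -68. The stretch printed starts after the matches at -141 and -138. The window of the other FBXO5 start, at position 152983579 where the gene begins, held no match. ESPL1 had CCAAT on the opposite strand at -48 and TTTGAA at -31 from its start, which is the first base of the gene. UBE2S and CDC27 held CCAAT alone, at -191 and -226, and FZR1 held TTTGAA alone, at -226. Of 35116 promoter windows, 32.0% held CCAAT, 21.9% held TTTGAA or TTTAAA, and 7.64% held both kinds. The combination was thus found in a window of 2 genes called higher and 2 called lower. This is counted by gene, whereas the shares are counted by window. A match describes letters in a window rather than a bound site.

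The first question was whether the coactivators of the complex changed after irradiation. CDC20 (ENSG00000117399, chr1:43358955-43363203, plus strand), which carries substrates to the complex at the metaphase to anaphase transition, was at 136, 130 and 131 FPKM in the 0 Gy libraries and at 163, 163 and 165 FPKM in the 10 Gy libraries. Every irradiated library was above every unirradiated one, and the irradiated libraries lay close together. The mean rose from 132 ± 3.27 to 164 ± 0.902 FPKM (SD, n = 3), a 1.24-fold change and a log2 change of 0.31 (SE 0.032, adjusted p = 0.00096). CDC20 stood at the percentile 94.1 of the log2 changes of all tested genes.

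FZR1 (ENSG00000105325, chr19:3506273-3538330, plus strand), the coactivator that takes over from CDC20 as cells leave mitosis, was at 20.2, 19.5 and 18.6 FPKM at 0 Gy and at 19.2, 20.2 and 19.5 FPKM at 10 Gy. The groups overlapped fully. Its means were 19.4 ± 0.770 and 19.6 ± 0.530 FPKM (SD, n = 3), and the log2 change of 0.014 had a 95% interval from -0.078 to 0.11 (adjusted p = 0.805). Under TPM scaling, which gives every library the same sum of length-scaled values, the log2 change was 0.14 and passed the test (adjusted p = 0.029), while the median of all genes moved to 0.077 under the same scaling. A stretch of 70 exonic bases of FZR1 lies opposite MFSD12, which was at 28.3 and 28.0 FPKM at the 2 doses.

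**Figure D1:**
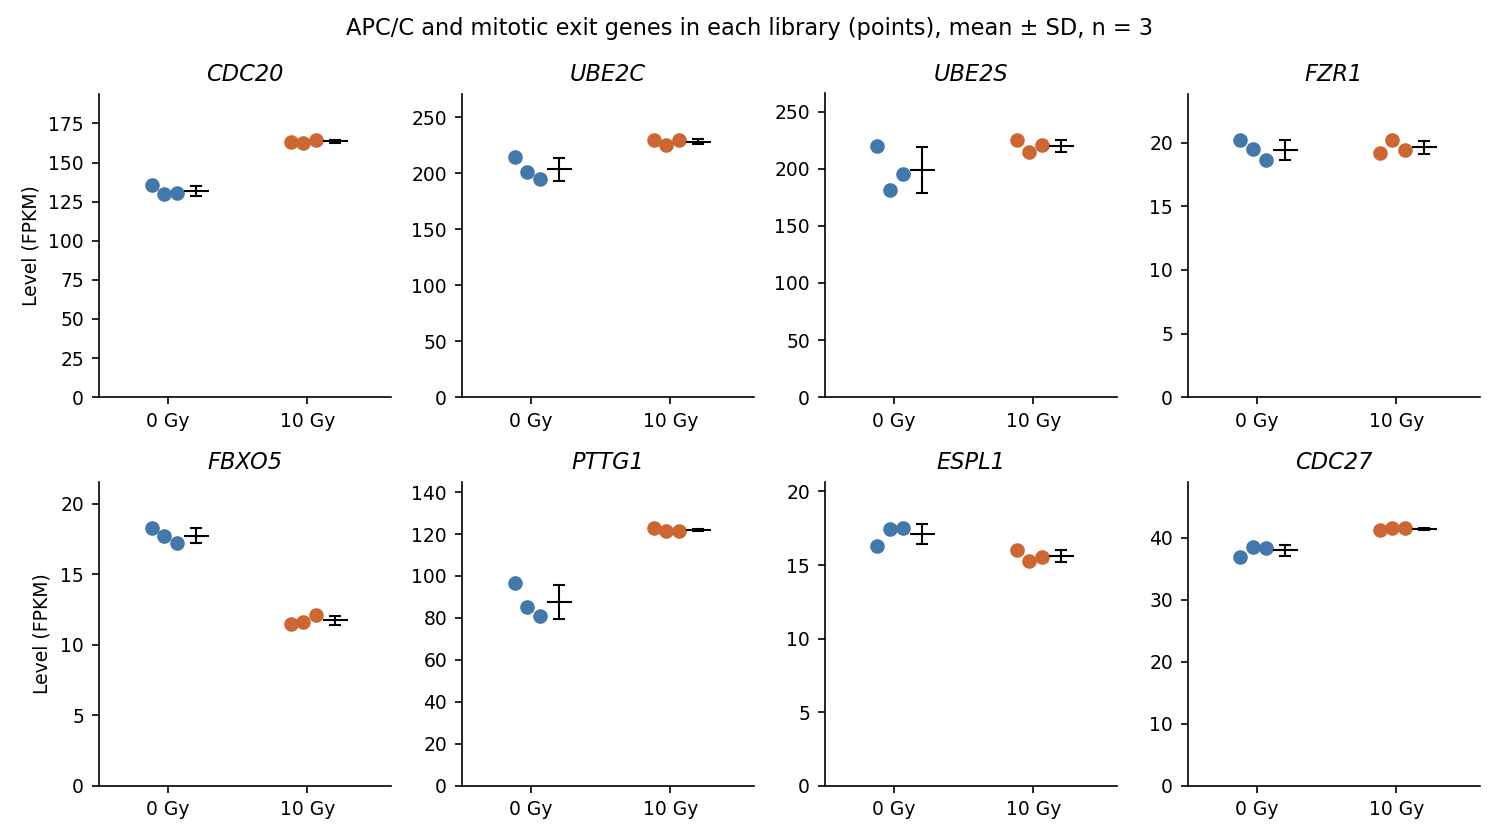
Level of each of the 8 genes in FPKM (vertical axis, from 0) in the 3 libraries at 0 Gy (blue) and the 3 at 10 Gy (orange), with the mean and SD beside the points. CDC20, UBE2C, PTTG1 and CDC27 sit higher in every irradiated library, FBXO5 and ESPL1 sit lower, and UBE2S and FZR1 overlap.

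The ubiquitin-conjugating enzymes were compared next. UBE2C (ENSG00000175063, chr20:45812576-45816957, plus strand), which places the first ubiquitins on APC/C substrates, was at 215, 201 and 195 FPKM at 0 Gy and at 229, 226 and 230 FPKM at 10 Gy. All irradiated libraries were above all unirradiated ones, by a narrow margin over the highest of these. The mean rose 1.12-fold, from 203 ± 10.3 to 228 ± 2.32 FPKM (SD, n = 3), with a log2 change of 0.17 (SE 0.043, adjusted p = 0.023). The call was lost without any of 5 of the 6 libraries in turn, 0 Gy replicate 1 being the exception, with adjusted p values up to 0.081 at log2 changes from 0.13 to 0.17, and it was lost when low genes were not filtered out (adjusted p = 0.087).

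UBE2S (ENSG00000108106, chr19:55399745-55407777, minus strand), which lengthens the chains that UBE2C begins, was at 220, 181 and 195 FPKM at 0 Gy and at 225, 215 and 221 FPKM at 10 Gy. The highest unirradiated library lay within the irradiated range and the other two lay below it. Its means were 199 ± 19.9 and 220 ± 5.24 FPKM (SD, n = 3), and the log2 change of 0.15 had a 95% interval from -0.010 to 0.31 (adjusted p = 0.126). Without 0 Gy replicate 1, the library with the highest unirradiated level, the log2 change was 0.23 and was called (adjusted p = 0.0089). It was also called under TPM scaling, at 0.28 (adjusted p = 0.011). The processed pseudogenes UBE2SP1 and UBE2SP2 were at 4.21 and 2.51 FPKM at 0 Gy and at 5.49 and 2.71 FPKM at 10 Gy, and how reads that match both a copy and UBE2S were counted is not known.

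FBXO5 (ENSG00000112029, chr6:152970519-152983579, minus strand), the inhibitor that holds the complex off until cells enter mitosis, was at 18.3, 17.8 and 17.2 FPKM at 0 Gy and at 11.5, 11.6 and 12.1 FPKM at 10 Gy. The doses were widely separated, with at most 1.06-fold between libraries at 0 Gy and 1.05-fold at 10 Gy. The mean fell from 17.7 ± 0.532 to 11.7 ± 0.321 FPKM (SD, n = 3), a log2 change of -0.56 (SE 0.037, adjusted p = 0.00043). It stood at the percentile 0.717 of all tested genes, the most extreme position of the 8 members. The values rested on 1493, 1046 and 1428 reads at 0 Gy and on 1314, 814 and 1003 reads at 10 Gy. The antisense gene AL080276.2, which lies opposite 4.10% of its exonic bases, was at 0.0911 and 0.0796 FPKM.

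Securin and separase are partners, and with the values as deposited securin RNA was called higher and separase RNA lower. The separase call was kept in 8 of 19 alternatives, against all 19 for securin. PTTG1 (ENSG00000164611, chr5:160421822-160428744, plus strand), the securin that holds separase inactive until anaphase, was at 96.6, 85.3 and 81.0 FPKM at 0 Gy and at 123, 122 and 121 FPKM at 10 Gy. The unirradiated libraries spread widely and the irradiated ones hardly at all, without overlap. The mean rose from 87.6 ± 8.05 to 122 ± 0.683 FPKM (SD, n = 3), a log2 change of 0.48 (SE 0.061, adjusted p = 0.0019), which placed PTTG1 at the percentile 98.1 of all tested genes. Its paralog PTTG2 and the copy PTTG3P were listed at 0 in all libraries.

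ESPL1 (ENSG00000135476, chr12:53268299-53293643, plus strand), the separase that cleaves cohesin at anaphase, was at 16.3, 17.5 and 17.5 FPKM at 0 Gy and at 16.0, 15.3 and 15.6 FPKM at 10 Gy. The lowest unirradiated library was only just above the highest irradiated one. The mean fell from 17.1 ± 0.679 to 15.6 ± 0.383 FPKM (SD, n = 3), a log2 change of -0.12 (SE 0.039, adjusted p = 0.045). This call was close to the threshold and was kept in 8 of 19 alternatives. Under TPM scaling the log2 change was -0.0018 (adjusted p = 0.980), and leaving out any library other than 0 Gy replicate 1 ended the call, with adjusted p values from 0.074 to 0.142.

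CDC27 (ENSG00000004897, chr17:47117703-47189422, minus strand), a scaffold subunit through which the complex contacts its coactivators, was at 36.9, 38.5 and 38.4 FPKM at 0 Gy and at 41.2, 41.5 and 41.5 FPKM at 10 Gy. All irradiated libraries were higher, by a small and even margin. The mean rose from 37.9 ± 0.890 to 41.4 ± 0.188 FPKM (SD, n = 3), a 1.09-fold change and a log2 change of 0.12 (SE 0.029, adjusted p = 0.017). Leaving out any of the irradiated libraries ended the call, with adjusted p values from 0.059 to 0.066.

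**Figure D2:**
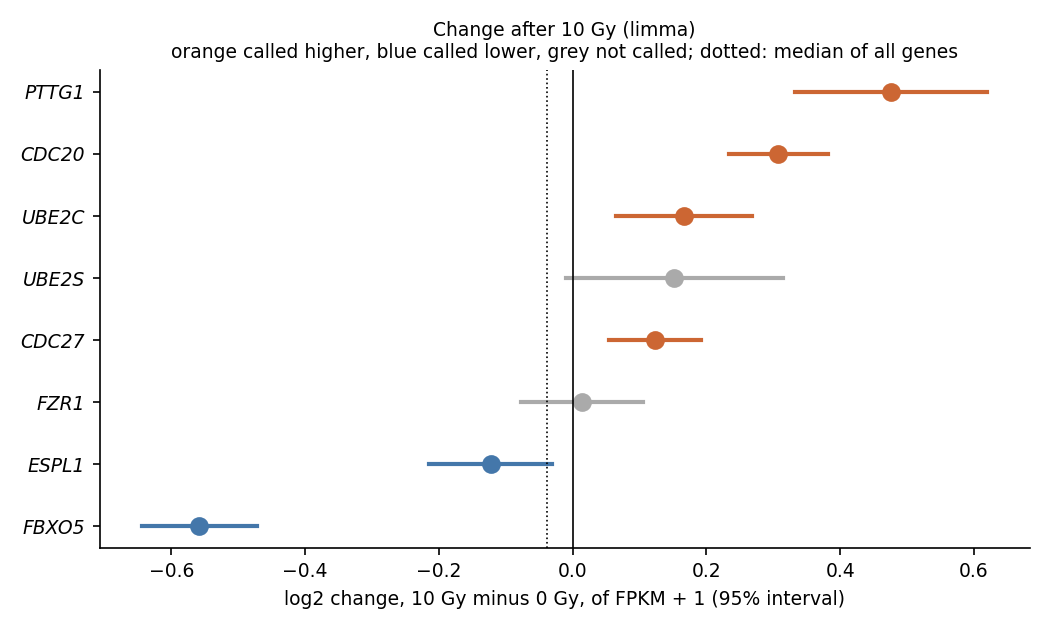
Log2 change of each gene, 10 Gy minus 0 Gy, of FPKM + 1 from the limma fit (horizontal axis), with 95% intervals and the median of all genes as a dotted line. PTTG1 at 0.48 and FBXO5 at -0.56 lie farthest from that median of -0.039, and the intervals of UBE2S and FZR1 reach past 0.

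Counted by library, 4 of the 8 genes had all irradiated values above all unirradiated ones, against 19.1% of tested genes, and 2 had all of them below, against 32.8%. Per kilobase of gene, the order of levels at 0 Gy was UBE2C, UBE2S, CDC20, PTTG1, CDC27, FZR1, FBXO5 and ESPL1. In that order UBE2C and UBE2S overlapped between libraries, as did FBXO5 and ESPL1, and all other neighbors were separate. At 10 Gy the order differed only in that ESPL1 stood above FBXO5, with 15.3 FPKM as its lowest value against 12.1 FPKM as the highest of FBXO5, and no neighbors overlapped. The conjugating enzymes were thus the most abundant members at both doses and the inhibitor and separase the least abundant.

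Ratios between partners within a library do not depend on its scaling and were used to ask whether partners changed unequally. The ratio of CDC20 to FZR1 was 6.73, 6.64 and 7.01 at 0 Gy and 8.50, 8.05 and 8.45 at 10 Gy, a log2 difference of 0.30. For FBXO5 to FZR1 the ratio was 0.905, 0.910 and 0.923 at 0 Gy and 0.597, 0.575 and 0.621 at 10 Gy, a log2 difference of -0.61. Relative to FZR1 RNA, CDC20 RNA was thus higher and FBXO5 RNA lower in every irradiated library. PTTG1 to ESPL1 was 5.92, 4.88 and 4.63 at 0 Gy and 7.66, 7.96 and 7.81 at 10 Gy, a log2 difference of 0.61, the larger shift being in securin. CDC20 to CDC27 was 3.68, 3.36 and 3.40 at 0 Gy and 3.96, 3.92 and 3.96 at 10 Gy, a log2 difference of 0.18. In each of these 4 ratios the doses did not overlap, and the exact two-sided permutation test gave p = 0.1, the smallest value that 3 against 3 libraries allow, and 0.125 after Benjamini-Hochberg adjustment over the 5 ratios tested. UBE2C to UBE2S, in contrast, was 0.975, 1.11 and 0.998 at 0 Gy and 1.02, 1.05 and 1.04 at 10 Gy, with overlapping doses and the log2 difference was 0.014 (p = 0.9 in the exact permutation test). The design could not reach 0.05 for any single ratio.

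**Figure D3:**
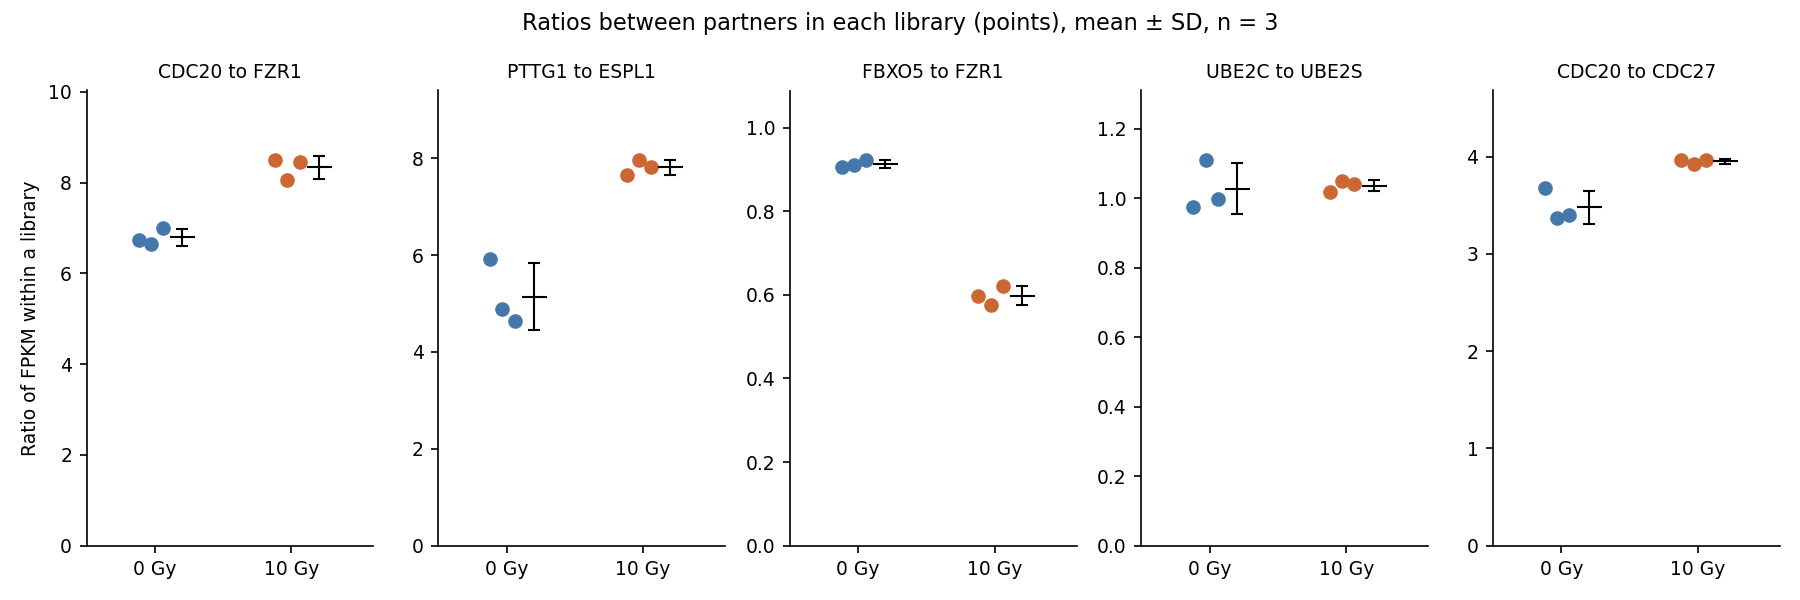
Ratio of FPKM between partner genes within each library (vertical axes, from 0) at 0 Gy (blue) and 10 Gy (orange), with the mean and SD of 3 libraries beside the points. CDC20 to FZR1, PTTG1 to ESPL1 and CDC20 to CDC27 are higher in all irradiated libraries, FBXO5 to FZR1 is lower, and UBE2C to UBE2S overlaps.

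The scaling of the libraries moved the members together. The deposited values carry a factor that differs between doses, the depth they imply being 0.973 to 0.991 of the recovered reads at 0 Gy and 1.03 to 1.04 at 10 Gy. Of the genes called, 66.6% were lower with the values as deposited, 25.5% under TPM scaling and 41.9% when each library was divided by its own recovered reads, with medians of all genes at -0.039, 0.077 and 0.023. Under TPM scaling 25.7% of tested genes were called higher and 8.79% lower, and by recovered reads 18.9% and 13.6%, against which counts under those scalings are to be read. The log2 change of CDC20 was 0.31, 0.44 and 0.38 under these 3 scalings, and that of FBXO5 was -0.56, -0.46 and -0.49. Measured from the median of all genes, CDC20 lay between 0.35 and 0.36, PTTG1 between 0.51 and 0.53, and FBXO5 between -0.54 and -0.51 under the 5 scalings compared. On the same measure UBE2C lay between 0.20 and 0.22, CDC27 between 0.16 and 0.18, FZR1 between 0.052 and 0.064, and ESPL1 between -0.084 and -0.075. CDC20, PTTG1 and FBXO5 passed the test in all 19 alternatives.

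**Figure D4:**
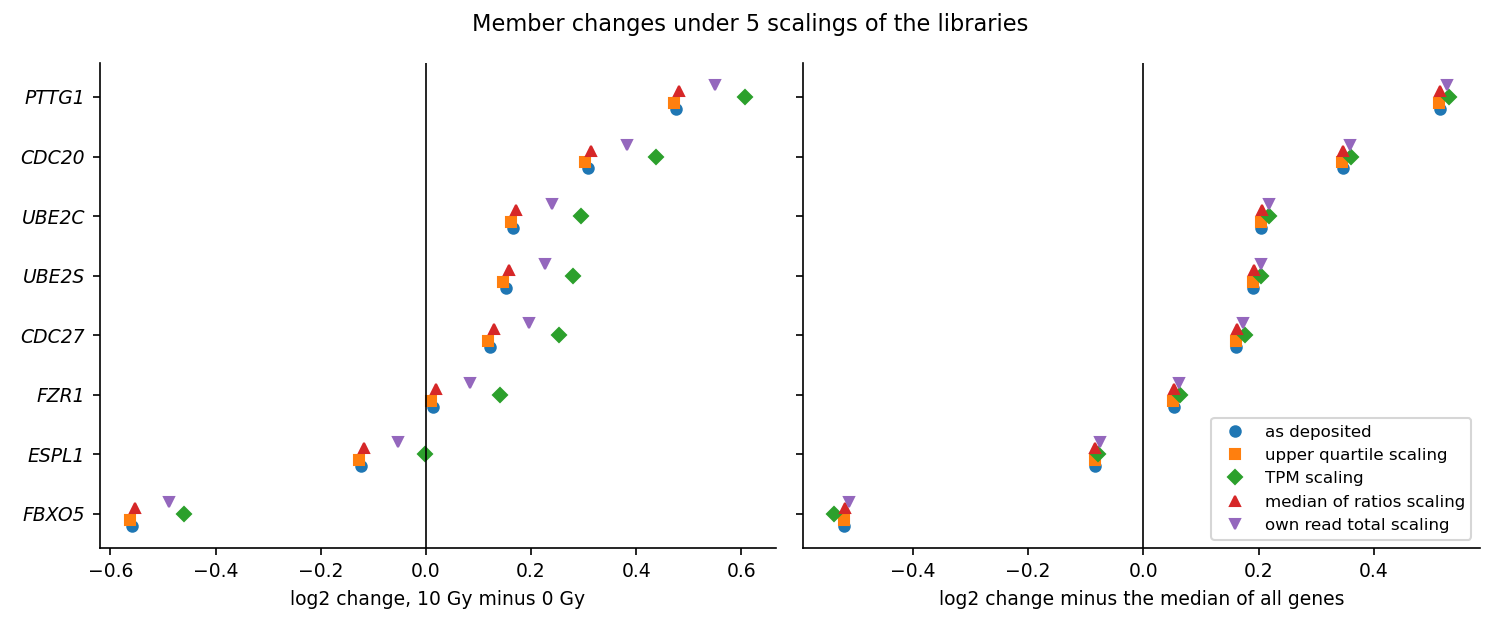
Log2 change of each gene (10 Gy minus 0 Gy) under 5 scalings of the libraries, as fitted on the left and after subtracting the median of all genes on the right. On the left the TPM points lie farthest to the right, with ESPL1 at -0.0018, and on the right the scalings nearly coincide, with PTTG1 between 0.51 and 0.53 and FBXO5 between -0.54 and -0.51.

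Most other subunits of the complex moved against CDC27 or did not pass the test. Of the 14 core subunits tested, 7 (50%) were called lower, against 23.7% of all genes, with a median log2 change of -0.14. CDC27 alone was called higher, or 7.14%, against 11.9% of all genes. Under TPM scaling 1 core subunit was lower, where 8.79% of all genes were. With each library's own read total 2 were lower, where 13.6% of all genes were. The number of core subunits called lower thus depended on scaling, whereas CDC27 was called higher under both. Leaving out 1 library gave 2 to 6 lower, with 2 without 10 Gy replicate 1, 3 without 10 Gy replicate 2 and 4 without 0 Gy replicate 1 or 3. In those fits all genes called lower numbered 1808 to 2630, against 2874 with every library. Among the core subunits called, the largest falls were in CDC26, ANAPC13 and ANAPC16. ANAPC13 fell from 14.0 to 11.2 FPKM, by 0.29 on the log2 scale (adjusted p = 0.0069). CDC26 fell from 16.8 to 13.6 FPKM, with a log2 change of -0.29 (adjusted p = 0.034), but 10 Gy replicate 3 stood at 15.7 FPKM, near the unirradiated libraries, and the call was kept in 1 of the 6 fits that left out a library. ANAPC16 fell from 15.3 to 13.2 FPKM, a log2 change of -0.20 (adjusted p = 0.011). ANAPC11, the catalytic RING subunit, was at 26.3 and 21.7 FPKM, a log2 change of -0.26 that missed the threshold (adjusted p = 0.060).

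The spindle checkpoint list holds genes that keep CDC20 inactive at unattached kinetochores and genes, such as MAD2L1BP and TRIP13, that release it. Of its 8 genes, 3 were called higher and 1 lower, or 37.5% and 12.5%, against 11.9% and 23.7% of all genes. The median log2 change was 0.0082. Under TPM scaling 4 were called higher and the rest not called, with a median of 0.13, where all genes gave 25.7% and 8.79%. BUB1B, which encodes the BUBR1 protein that binds CDC20, rose from 18.8 to 24.0 FPKM, a log2 change of 0.34 (adjusted p = 0.00070). The checkpoint kinase BUB1 rose from 36.0 to 43.7 FPKM, a log2 change of 0.27 (adjusted p = 0.0015), and TTK, the kinase that starts the signal, rose from 13.0 to 15.2 FPKM, a log2 change of 0.22 (adjusted p = 0.010). BUB3, the binding partner of BUB1 and BUBR1, fell from 44.9 to 40.3 FPKM, a log2 change of -0.15 (adjusted p = 0.0059), a call lost under TPM scaling. MAD2L1, which sequesters CDC20, was at 28.7 and 29.1 FPKM (adjusted p = 0.741), but was called higher under TPM scaling, with a log2 change of 0.14 (adjusted p = 0.011).

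Substrates of the complex were split by direction, with 10 of 25 called higher, 8 lower and a median log2 change of 0.063. These are 40% and 32%, against 11.9% and 23.7% of all genes. Under TPM scaling the split was 16 higher and 6 lower, where all genes gave 25.7% and 8.79%. NEK2, a centrosome kinase, rose from 31.9 to 49.0 FPKM, a log2 change of 0.61 (adjusted p = 0.00023), and the spindle protein HMMR rose from 2.74 to 4.63 FPKM, a log2 change of 0.59 (adjusted p = 0.00059). CCNB2, a mitotic cyclin, rose from 32.1 to 47.3 FPKM, a log2 change of 0.55 (adjusted p = 0.00058). The largest fall was that of RRM2, a subunit of ribonucleotide reductase, which fell from 35.1 to 21.6 FPKM, a log2 change of -0.67 (adjusted p = 0.00023). SKP2, the subunit of another ubiquitin ligase, fell from 12.8 to 10.2 FPKM, a log2 change of -0.30 (adjusted p = 0.0028), and geminin (GMNN), which blocks relicensing of replication, fell from 30.8 to 25.1 FPKM, a log2 change of -0.29 (adjusted p = 0.0041).

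Downstream of separase, 1 of 11 genes of cohesin and its protectors was called higher and 3 lower, or 9.09% and 27.3%, near the 11.9% and 23.7% of all genes, with a median log2 change of -0.017. Under TPM scaling 4 were higher and 3 lower, where all genes gave 25.7% and 8.79%. SGO2, which shields centromeric cohesin, rose from 11.6 to 15.4 FPKM, a log2 change of 0.38 (adjusted p = 0.0012). The cohesin subunit STAG1 fell from 6.39 to 4.60 FPKM, a log2 change of -0.40 (adjusted p = 0.0021), and SMC3 fell from 56.3 to 45.3 FPKM, a log2 change of -0.31 (adjusted p = 0.0015). CDCA5 (sororin), which locks cohesin on chromatin and is an APC/C substrate too, fell from 52.6 to 43.6 FPKM, a log2 change of -0.26 (adjusted p = 0.0045). RAD21, the subunit that separase cleaves, was at 76.5 and 73.3 FPKM (adjusted p = 0.150).

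Among mitotic exit phosphatases and their regulators, 6 of 13 genes were called lower and the rest not called with the deposited scaling. That is 46.2% lower, against 23.7% of all genes. Under TPM scaling 4 were higher and the rest not called, where 25.7% of all genes were called higher. With each library's own read total 2 were higher and 3 lower, where all genes gave 18.9% and 13.6%. The number lower was 3 without 10 Gy replicate 1 or 3. It was 4 without 10 Gy replicate 2, under the replicate block and without the eBayes trend or the filter. In those fits all genes called lower numbered 1808 to 2689, against 2874 in the main fit, so the counts are to be read against these. Without the filter they numbered 1815 of 31650 genes tested. With the deposited scaling, the median log2 change of the 13 genes, -0.041, was near that of all genes. The largest falls were in PPP2CA, a catalytic subunit of PP2A, at -0.21 (42.3 to 36.3 FPKM, adjusted p = 0.0074), in ENSA, a PP2A inhibitor, at -0.21 (37.0 to 31.8 FPKM, adjusted p = 0.0091), and in PPP1CB, a catalytic subunit of PP1, at -0.18 (23.5 to 20.7 FPKM, adjusted p = 0.0063).

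The ligase that removes FBXO5 protein at mitotic entry has 5 genes on its list, of which 1 was called higher and 1 lower. That is 20% each, near the 11.9% and 23.7% of all genes for so short a list. FBXW11, a substrate receptor, rose from 19.7 to 22.0 FPKM, a log2 change of 0.15 (adjusted p = 0.0092), and RBX1, its RING subunit, fell from 22.2 to 18.4 FPKM, a log2 change of -0.26 (adjusted p = 0.012), a call lost under TPM scaling. The deubiquitinases USP37 and OTUD7B, which oppose the APC/C, did not pass the test, and USP44 was below a mean of 1 FPKM and was not tested. Of 15 regulators of mitotic entry, 9 (60%) were called higher and 3 (20%) lower, against 11.9% and 23.7% of all genes. Their median log2 change was 0.24. Under TPM scaling 10 were higher and 2 lower, where all genes gave 25.7% and 8.79%. NEK2 and CCNB2 led the rises, followed by the kinase AURKA, from 93.5 to 132 FPKM (log2 change 0.49, adjusted p = 0.00035). The falls were in PKMYT1, an inhibitory kinase of CDK1, from 21.4 to 17.2 FPKM (log2 change -0.30, adjusted p = 0.011), in AURKB, the chromosomal passenger kinase, from 60.5 to 51.8 FPKM (log2 change -0.22, adjusted p = 0.0026), and in CDC25A, from 14.9 to 13.0 FPKM (log2 change -0.19, adjusted p = 0.0067), the last call being lost under TPM scaling. NEK2, CCNB2, AURKA, AURKB and CDC25A, among others, stand on the substrate list too, so the lists are not independent of each other.

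**Figure D5:**
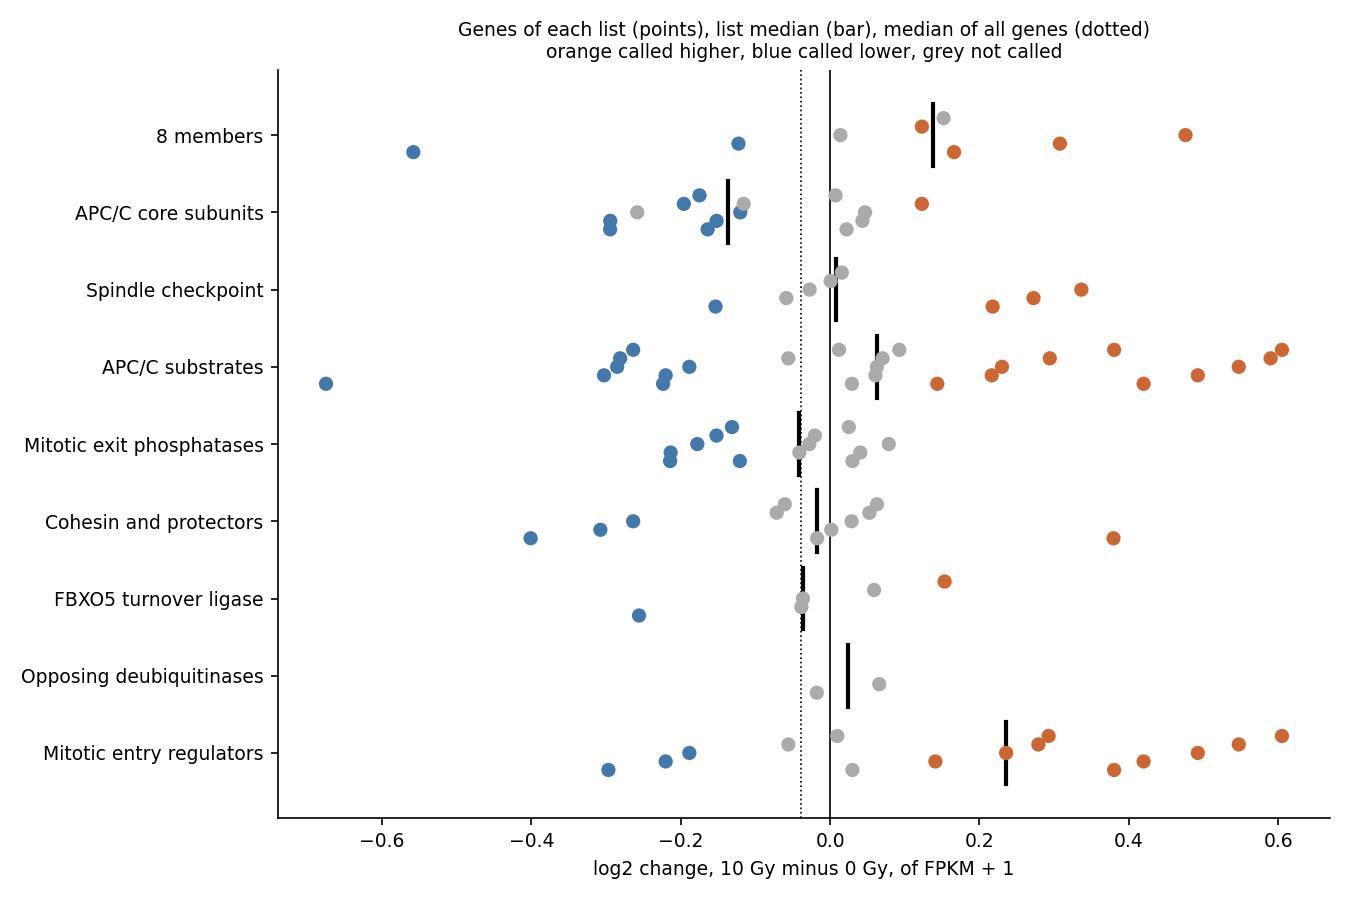
Log2 change (10 Gy minus 0 Gy, of FPKM + 1, horizontal axis) of each tested gene in the 8 members and in 8 related lists, colored by call with the values as deposited, with each list's median as a bar and the median of all genes as a dotted line. Core subunits center on -0.14 and mitotic entry regulators on 0.24. Under TPM scaling the calls among core subunits number 1 higher and 1 lower. Those among the mitotic exit phosphatases and their regulators number 4 higher with the rest not called.

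The genes whose levels over the 6 libraries were most like those of each member were found by Pearson's r of log2(FPKM + 1) among protein-coding genes. These correlations describe 6 libraries in 2 dose groups and mostly carry the difference between doses, so they are given without p values. CDC20 was closest to CCNB1, the mitotic cyclin that it targets, at r = 0.999, followed by NXN and ZDHHC24 at 0.998 each. FBXO5 was closest to MRPL39 at 1.00, TBC1D2 at 1.00 and the replication helicase subunit MCM5 at 0.999. PTTG1 was closest to TMF1 at 0.999, SLC27A1 and DVL3, and CDC27 to XRCC2 at 0.999, SRGAP2 and KIF13B. UBE2C was closest to ERLEC1 at 0.997, ABCB9 and SECTM1, and ESPL1 to MECOM at 0.997, DHX33 and KAT7. UBE2S was closest to TMEM54 at 0.994, RBM42 and FLYWCH2, and FZR1 to TCEAL1 at 0.986, ZNF181 and ATXN7L2. Genes with r over 0.95 numbered 1206 for FBXO5 and 419 for CDC20 but 7 for FZR1, the member that differed least between doses. Between members, CDC20 had r of 0.981 with PTTG1 and -0.974 with FBXO5 over the same libraries.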

How the data were processed

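The authors deposited FPKM values per gene for 6 polyA libraries of MDA-MB-231 cells, sequenced as paired ends by a provider. The submitters' processing notes name HISAT2 and GRCh38; the counting program, its strand setting and the test behind the study's fold changes are not given in the sources used here. Gene identifiers are those of GENCODE 29. FPKM divided by the value of 1 read gave whole reads (within 0.05) for 100% of values above 0, which were used for depth and for added alternatives. The number of value columns that belong to no sample was 0.

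Samples were grouped by the dose in their labels. The 12128 genes averaging 1 FPKM or more were compared on log2(FPKM + 1), a scale that understates changes of low genes, in R 4.3.3 with limma 3.58.1 (eBayes with an intensity trend), with Benjamini-Hochberg adjustment over all of them. The fit was tested on simulated data. These data held no scaling factor that differs between doses, so the simulation does not bear on the scaling of the deposited values. Ratios were tested by exact permutation (scipy 1.17.1). Named genes were the 8 members, the up to 3 called genes of each list with the largest rise and fall, the 3 genes most like each member, and overlapping genes and copies; MAD2L1, MAD2L1BP, TRIP13, RAD21, ANAPC11 and the deubiquitinases were named outside that rule. Members and lists were chosen with earlier results of these data known. Alternatives were the pseudocount, the filter, library scaling, a replicate block, settings of eBayes, a restriction to protein-coding genes and leaving out each library; scaling by recovered reads and limma-voom on those reads were added after seeing the data.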

Additional observations from a re-analysis of the deposited data

How the results depend on the processing

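Each member's log2 change was recomputed under 19 alternatives. CDC20 (0.29 to 0.44), PTTG1 (0.42 to 0.61) and FBXO5 (-0.60 to -0.46) passed the test in all of them, with adjusted p values up to 0.0083, 0.013 and 0.0055. Without the filter on low genes, which tests more genes, UBE2C (0.17, adjusted p = 0.087) and ESPL1 (-0.12, adjusted p = 0.098) missed the threshold, leaving 1 member lower. TPM scaling also left 1 member lower, with ESPL1 at -0.0018, and called UBE2S (0.28) and FZR1 (0.14) higher. The number lower was 1, with ESPL1 missing the threshold, under median of ratios scaling (-0.12, adjusted p = 0.055), without the eBayes trend (-0.12, adjusted p = 0.067) and under scaling by recovered reads (-0.052, adjusted p = 0.365), where UBE2S was called (0.23, adjusted p = 0.034), as it was by limma-voom (0.15, adjusted p = 0.026), which called 5161 genes. The cause of these differences was not tested. Of all genes, 1443 were called higher and 2874 lower, against 3113 and 1066 under TPM scaling, 2294 and 1651 under scaling by recovered reads, 1097 and 1815 without the filter, and 874 and 2734 at a minimum of 5 FPKM.

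Leaving out each library in turn, UBE2C ranged from 0.13 to 0.21, UBE2S from 0.087 to 0.23, ESPL1 from -0.15 to -0.11, CDC27 from 0.10 to 0.13 and FZR1 from -0.015 to 0.040, the sign of FZR1 turning without 0 Gy replicate 3 (-0.015) and without 10 Gy replicate 2 (-0.0068). Members called lower numbered 1 to 2 and members called higher 2 to 5. All genes called numbered 2660 to 3993 against 4317, the lowest being 2660 without 10 Gy replicate 2 and 2705 without 10 Gy replicate 1, fits on fewer samples. The log2 ratio of UBE2C to UBE2S ranged from -0.023 to 0.071, with reversed signs without 0 Gy replicate 1 (-0.023) and replicate 3 (-0.0059), and the other ratios kept their signs.

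With the replicate number as a replicate block, 1 member was called lower, ESPL1 standing at -0.12 (adjusted p = 0.098), core subunits called lower numbered 4 against 7, 3503 genes were called in all, and no other member's call changed. Same-numbered libraries of the 2 doses correlated at -0.0405, -0.0349 and -0.101 in their deviations from the group means. Differently numbered ones correlated at -0.0518 to 0.0937. No pairing by number was thus detected, but deviations from means of 3 libraries cannot exclude one. In the ratios, 3 pairs allow no exact p below 0.25.

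Limits are set by 3 libraries per dose and 15643641 reads in the shallowest. The calls of UBE2C and ESPL1 were each kept in 1 of the 6 fits that left out a library, and that of CDC27 in 3. Those fits rest on fewer samples, and whether this or a single library ended the calls was not tested. Among the members, the calls of ESPL1, UBE2S and FZR1 depended on the scaling chosen. Those of UBE2C and CDC27 were kept under every scaling compared, though the sizes of their changes moved. In the related lists, the calls of BUB3, RBX1 and CDC25A were among those lost under TPM scaling.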

Other observations

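With each gene counted once, called genes of the pathway lists numbered 46 with the values as deposited and 36 to 47 under the alternatives run. Of all 12128 genes tested, 11.9% were called higher and 23.7% lower as deposited. All genes called numbered 4317 as deposited and 2660 to 5161 under the alternatives, so the list count is to be read against these. USP44, the deubiquitinase that was not tested, had means of 0.941 FPKM at 0 Gy and 1.05 FPKM at 10 Gy. Rows named as copies of CDC20, UBE2C and CDC27 held at most 4 reads in any library. Opposite CDC27, the antisense gene AC002558.2 shares 126 exonic bases and was at 0.0780 and 0.0729 FPKM, and RPL28, on the other strand at the UBE2S locus, shares no exonic base with it.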
